A study of Mus musculus with 18 samples.

Results

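The gene that encodes the tumour suppressor p53 (Trp53) and 9 of its target genes (Cdkn1a, Mdm2, Ccng1, Bax, Sesn2, Zmat3, Phlda3, Plk2 and Perp) were followed in ultraviolet-exposed mouse skin and in the tumours that arose on it. The 10 genes were picked by name, with earlier results of these data known, and all 10 were found among the 14521 genes with a symbol. The samples came from 6 littermate female SKH-1E Hairless mice, which are outbred and prone to skin tumours under ultraviolet light. All mice had been irradiated chronically with ultraviolet B from solar simulators, and tissue was taken some time after the last exposure. Each mouse, numbered 2, 3, 7, 8, 9 or 10, gave non-lesional chronically irradiated skin (CHR), 1 papilloma (PAP, a benign outgrowth of the epidermis, grade 1 or 2) and 1 cutaneous squamous cell carcinoma (SCC, grade 1 or 2), so that n = 6 in each group. The CHR samples were thus irradiated skin as well, and no unirradiated skin was analysed here. The labels give no treatment or allele that differed between the groups, and the alleles of Trp53 that the lesions carried were not analysed here.

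p53 is a transcription factor that is held at a low level by the ubiquitin ligase Mdm2 and accumulates as a protein after DNA damage, for instance by ultraviolet light. It then binds near its target genes, which stop the cell cycle, start apoptosis, repair DNA or limit oxidative stress. One of the targets is Mdm2 itself, which closes a feedback loop. The level of Trp53 mRNA and the activity of the protein are therefore separate quantities, and only mRNA was measured here. In keratinocytes, ultraviolet-induced mutations of Trp53 are a common step on the way to squamous cell carcinoma.

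p53 binds DNA through pairs of half-sites, each of which has a core of C, a pair of A or T bases and G, with purines before it and pyrimidines after it. The region from 250 bases before to 50 bases after the start of a gene was available for 8 of the 10 genes in RefSeq (GRCm38.p6), with 2 starts for Cdkn1a. Both strands were searched for the exact half-site consensus, which was found in the windows of 5 of the 8 genes, namely Trp53, Cdkn1a, Mdm2, Ccng1 and Bax. It was found in 8.36% of all 32851 such windows. The matches are printed with 10 bases on either side because they are the sequence feature these genes share, and capitals mark the half-site.
Trp53: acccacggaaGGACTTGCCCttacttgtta
Cdkn1a, first match: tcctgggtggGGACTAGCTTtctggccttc
Cdkn1a, second match: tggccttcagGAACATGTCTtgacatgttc
Mdm2: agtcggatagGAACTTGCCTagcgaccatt
Ccng1: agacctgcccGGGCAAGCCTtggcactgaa
Bax: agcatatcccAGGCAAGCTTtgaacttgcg

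In GRCm38 these stretches lie at chr11:69580274-69580303 (plus strand, Trp53), chr17:29090896-29090925 and chr17:29090918-29090947 (plus strand, Cdkn1a), chr10:117710925-117710954 (minus strand, Mdm2), chr11:40755452-40755481 (minus strand, Ccng1) and chr7:45467080-45467109 (minus strand, Bax). All 6 lie upstream of the annotated start, Mdm2 and Ccng1 at -186 and -185 bases and Trp53 at -75 bases, counted to the first base of the half-site. A full site, meaning 2 half-sites at most 13 bases apart with at most 3 mismatches in all and at most 2 in each, was found in the windows of Cdkn1a and Bax and in 5.75% of all windows. It contains the second match of Cdkn1a and the match of Bax printed above. The upstream window of Cdkn1a held the closest match, at -51 to -32 bases, with 1 mismatch and no gap. It is printed in whole because Cdkn1a was the only member that passed the test between papilloma and carcinoma. Only 6 of 16 other fits kept that call, and any part of the site in it was not tested. Capitals mark the full site (chr17:29090729-29090978, plus strand).
Cdkn1a: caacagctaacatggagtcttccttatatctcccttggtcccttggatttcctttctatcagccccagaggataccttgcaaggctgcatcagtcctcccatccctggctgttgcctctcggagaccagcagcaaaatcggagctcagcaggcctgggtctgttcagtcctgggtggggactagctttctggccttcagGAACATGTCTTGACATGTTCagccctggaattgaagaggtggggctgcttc

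The other annotated start of Cdkn1a lies 2790 bases downstream, and its window held no exact half-site. None was found in the windows of Sesn2, Phlda3 or Plk2, which says only that these letters are not in those 300 bases. A match is a description of the sequence, and no binding was measured.

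The libraries held 15.4 to 21.0 M reads (median 18.9 M), as recovered from the deposited values, and levels are given as normalised reads, that is, reads divided by the size factor of the library. The marker genes of keratinocytes were present in every library, and none of the 15 was at 0 in a whole group. On the log2(value + 1) scale they averaged 13.76 ± 0.26 for CHR, 14.35 ± 0.36 for PAP and 13.68 ± 0.44 for SCC (SD, n = 6), where 'value' is the deposited score. Unless another fit is named, log2 differences are on this scale, in which 0 reads have a value of 39. For genes with few reads they are therefore smaller than the log2 ratio of the normalised reads printed beside them. In PAP vs CHR 9 of the 15 passed the test as higher and 3 as lower (Krt10, Epcam and Cldn1). The 10 proliferation genes stood at 9.23, 10.61 and 10.37 on this scale. The genes of skeletal muscle, which lies beneath the skin, stood at 13.76 in CHR, 7.17 in PAP and 10.51 in SCC. Among papillomas that of mouse 2 was highest for muscle (10.11, the others 6.18 to 6.95), and among carcinomas that of mouse 10 was lowest (6.29, the others 10.72 to 11.90). The summed reads of the muscle genes ranged from 386393 to 580937 in CHR, from 303 to 29176 in PAP and from 411 to 194611 in SCC, with all 10 genes lower in both kinds of lesion. Markers of fibroblasts (14.03, 11.13 and 13.04), adipocytes (10.41, 7.23 and 7.96), sebaceous glands (11.32, 7.86 and 8.12), myeloid cells (11.83, 10.12 and 11.37) and T cells (8.06, 6.82 and 7.23) also had lower means in PAP than in CHR. Of the 9 myeloid markers 6 were lower and S100a8 and S100a9 were higher, by 2.26 and 2.40 on the log2 scale. In such bulk samples fewer cells of a type and less RNA per cell cannot be told apart.

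Across the 10 genes the level per length differed widely. Over all 18 libraries, Perp stood highest with 26897 normalised reads per kilobase of annotated exon. Phlda3 (1309.7), Plk2 (884), Ccng1 (742), Cdkn1a (424), Mdm2 (383), Bax (339.8) and Sesn2 (228) followed on this scale. Trp53 itself (114) and Zmat3 (71.2) stood lowest. The exon lengths are those of all annotated isoforms together, so the order holds for that length only.

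**Figure D1:**
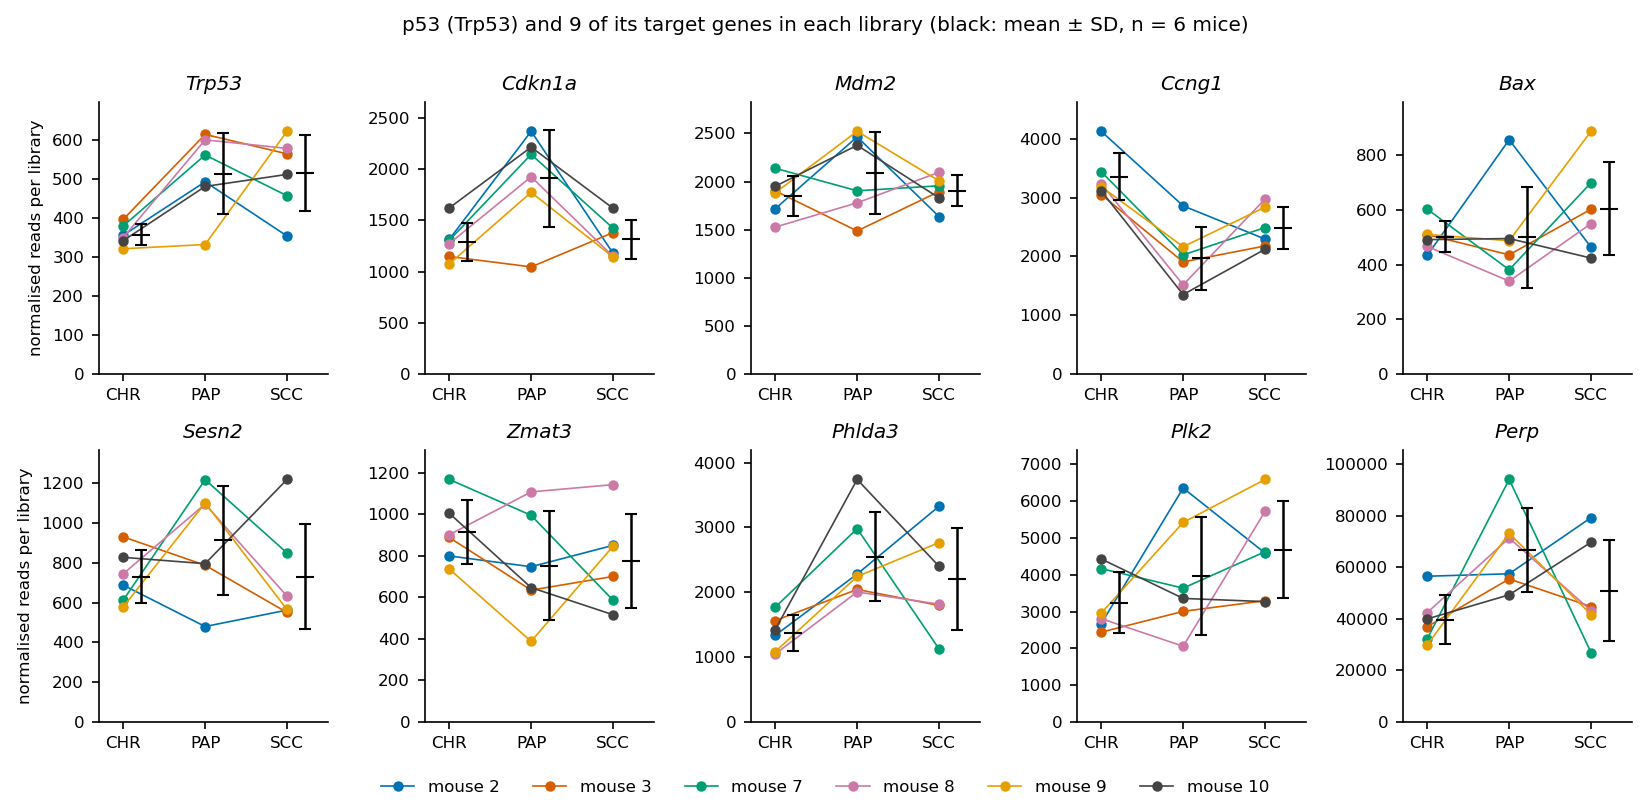
Normalised reads per library (vertical axes, linear from 0) of Trp53 and its 9 target genes in CHR, PAP and SCC. Coloured points joined by lines are the 6 mice and black marks are the mean ± SD. Ccng1 lies lower in every lesion than in any CHR sample (3053 reads or more), while Mdm2 and Bax overlap between all groups.

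Trp53 (ENSMUSG00000059552.13, GRCm38 chromosome 11, 69580359 to 69591873) was higher in both kinds of lesion than in irradiated skin. Its normalised reads ranged from 321 to 396 in CHR (median 352), from 332 to 614 in PAP (median 527) and from 353 to 622 in SCC (median 538). The CHR samples lay close together, and 5 of 6 lesions of each kind lay above all of them. The exceptions were the papilloma of mouse 9 (332 reads) and the carcinoma of mouse 2 (353 reads). The mean rose from 357 ± 27.0 in CHR to 513 ± 104 in PAP (SD, n = 6), a log2 difference of 0.43 ± 0.13 (SE, limma adjusted p = 0.0161), being higher in 6 of 6 mice. In SCC the mean was 514 ± 97.4 reads, again a log2 difference of 0.43 ± 0.13 against CHR (limma adjusted p = 0.0210) and a higher level in 5 of 6 mice. Between SCC and PAP the difference was 0.01 with a 95% interval from -0.28 to 0.29 on the log2 scale.

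The spread of Trp53 between mice was lower in CHR than for most genes, with an SD of 0.09 on the log2 scale against a median of 0.17 over all genes. In PAP and SCC the SD was 0.28 and 0.26, against medians of 0.30 and 0.31. The Trp53 calls were lost without mouse 3 or mouse 8 in PAP vs CHR (log2 differences of 0.40 and 0.38), and without mouse 3, 8 or 10 in SCC vs CHR (0.43, 0.40 and 0.42). With the keratinocyte markers as reference both calls were lost, with values of -0.16 and 0.51. A processed pseudogene of Trp53 exists in the mouse genome, so the assignment of some of its reads is uncertain.

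Mdm2 (ENSMUSG00000020184.15, chromosome 10, 117688875 to 117710758), the ligase that degrades p53 and a target of it, showed no difference that passed the test. Reads for Mdm2 ranged from 1526 to 2137 in CHR, from 1486 to 2522 in PAP and from 1635 to 2096 in SCC, with medians of 1893, 2140.0 and 1926. All groups overlapped. The log2 difference in PAP vs CHR was 0.15 with a 95% interval from -0.13 to 0.43 (limma adjusted p = 0.356), positive in 4 of 6 mice. In SCC vs CHR it was 0.04 with an interval from -0.24 to 0.32. In SCC the SD of Mdm2 was 0.12 on the log2 scale, and 4.24% of all genes had a lower one.

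Cdkn1a (ENSMUSG00000023067.14, chromosome 17, 29090976 to 29100727) encodes p21, the inhibitor of cyclin-dependent kinases through which p53 arrests the cell cycle. It was higher in papillomas than in either skin or carcinomas. Its reads ranged from 1074 to 1622 in CHR (median 1289), from 1045 to 2371 in PAP (median 2036) and from 1142 to 1619 in SCC (median 1279.9). Of the 6 papillomas, 5 had 1775 reads or more and lay above every CHR and SCC sample. The papilloma of mouse 3 had 1045 reads, fewer than any other library. The mean rose from 1289 ± 189 in CHR to 1913 ± 475 in PAP, a log2 difference of 0.51 ± 0.14 (limma adjusted p = 0.00807) and a higher level in 5 of 6 mice. With the keratinocyte markers as reference this call was lost (-0.07, limma adjusted p = 0.845).

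In SCC the Cdkn1a mean was 1315 ± 192 reads, and the log2 difference from CHR was 0.03 with a 95% interval from -0.27 to 0.33. Against PAP, Cdkn1a fell by 0.48 ± 0.14 on the log2 scale in SCC (limma adjusted p = 0.0458), lower in 5 of 6 mice. Only 6 of 16 other ways to fit the data kept this last call, with adjusted p between 0.0306 and 0.556. It was lost without the mouse as block, with SCC and PAP alone in the fit, and when mouse 2, 7, 8, 9 or 10 was left out. It was also lost under quantile scaling (-0.43) and on log2 of the recovered reads (-0.51), and with the keratinocyte markers as reference the sign turned (0.18). An annotated antisense transcript overlaps Cdkn1a, and the strand setting of the counting is not given in the sources used here.

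Ccng1 (ENSMUSG00000020326.7, chromosome 11, 40748552 to 40755311) encodes cyclin G1, a p53 target that acts on p53 through Mdm2. It was lower in every lesion than in any sample of irradiated skin. Its reads ranged from 3053 to 4132 in CHR (median 3212), from 1349.8 to 2861 in PAP (median 1966) and from 2122 to 2977 in SCC (median 2394). CHR thus did not overlap with either lesion group. Of all genes, 33.6% did not overlap between PAP and CHR (19.2% with PAP lower), and 19.7% did not overlap between SCC and CHR (11.2% with SCC lower). The mean of 3361 ± 401 reads in CHR stood against 1971 ± 535 in PAP, where Ccng1 fell by 0.78 ± 0.14 on the log2 scale (limma adjusted p = 0.000378), lower in 6 of 6 mice. In SCC, with 2484 ± 355 reads, it fell by 0.43 ± 0.14 (limma adjusted p = 0.0243), also in 6 of 6 mice.

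The lower Ccng1 level in PAP held in 16 of 16 other fits, and the one in SCC in 12 of 16, with losses when mouse 3, 7 or 10 was left out (log2 differences of -0.42, -0.42 and -0.41) and with libraries centred on the keratinocyte markers (-0.35). In SCC vs PAP the log2 difference was 0.35 (limma adjusted p = 0.125), positive in 5 of 6 mice. It passed the test without mouse 2 (0.48, limma adjusted p = 0.0419) and with the keratinocyte markers as reference (1.02, limma adjusted p = 0.0120). Ccng1 and the means of the T cell, skeletal muscle, adipocyte and myeloid lists were all lower in both lesions than in CHR. An r without removal of the group means includes this shared difference. After each mouse's mean was removed, Pearson's r over the 18 libraries was 0.89 with the T cell list, 0.88 with skeletal muscle, 0.83 with adipocytes and 0.82 with myeloid cells. After removal of the group means as well, these values were 0.42, 0.31, 0.06 and 0.36. The part of these cells in the Ccng1 difference was not tested.

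Plk2 (ENSMUSG00000021701.8, chromosome 13, 110395046 to 110400844), a polo-like kinase induced by stress, varied widely between lesions. It had 2440.4 to 4430.1 reads in CHR (median 2883), 2057 to 6359 in PAP (median 3498) and 3271 to 6593 in SCC (median 4609). The highest papilloma was that of mouse 2 and the highest carcinoma that of mouse 9. No difference passed the test, with log2 differences of 0.23 (95% interval -0.29 to 0.74) in PAP and 0.51 (-0.01 to 1.02) in SCC against CHR. The second was positive in 5 of 6 mice, with a limma adjusted p of 0.110, and passed the test without mouse 10 (0.70).

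Bax (ENSMUSG00000003873.11, chromosome 7, 45461697 to 45466898) encodes the protein that permeabilises the outer mitochondrial membrane in apoptosis. There were 434 to 603 Bax reads in CHR (median 500.4), 339 to 857 in PAP (median 462) and 424 to 888 in SCC (median 577). The papilloma of mouse 2 and the carcinoma of mouse 9 stood highest, as they did for Plk2. The log2 difference from CHR was -0.05 in PAP (95% interval -0.46 to 0.36) and 0.21 in SCC (-0.20 to 0.62), and neither passed the test. Another annotated transcript overlaps the exons of Bax on the same strand, so its counts are uncertain to that extent.

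Perp (ENSMUSG00000019851.8, chromosome 10, 18845020 to 18857073) encodes a tetraspan membrane protein of desmosomes, the junctions that hold keratinocytes together, and is a target of both p53 and its relative p63. Reads for Perp ran from 29901 to 56564 in CHR (median 38497), from 49349.8 to 94149 in PAP (median 64464) and from 26934 to 79317 in SCC (median 44008). The groups overlapped, since the CHR sample of mouse 2 held more than the papillomas of mice 3 and 10. The mean of 39698 ± 9492 in CHR rose to 66857 ± 16301 in PAP, a log2 difference of 0.75 ± 0.24 (limma adjusted p = 0.0187) and a higher level in 6 of 6 mice. Within mice the difference ran from 0.02 in mouse 2 to 1.54 in mouse 7. The call was lost without mouse 8 (0.75) or mouse 9 (0.64), and with the keratinocyte markers as reference (0.16).

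In SCC, Perp had a mean of 50956 ± 19589 reads, with a log2 difference from CHR of 0.30 (95% interval -0.22 to 0.82) that did not pass the test. Perp followed the keratinocyte markers more closely than any other member did. Its r with that list over the 18 libraries was 0.92 after removal of the mouse means and 0.97 after removal of mouse and group means. The highest papilloma for Perp, that of mouse 7, was also the highest for keratinocyte markers (14.78), and the lowest carcinoma for Perp, also of mouse 7, was the lowest for them. The other ends did not match. The lowest papilloma was that of mouse 10 for Perp and of mouse 2 for the markers. The highest carcinoma was that of mouse 2 for Perp and of mouse 10 for the markers. The part of the keratinocyte share in the Perp difference was not tested.

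Phlda3 (ENSMUSG00000041801.5, chromosome 1, 135766119 to 135769136) encodes a small pleckstrin-homology protein that inhibits the kinase Akt. Of the 10 genes it had the largest log2 difference in PAP vs CHR. Its reads ranged from 1049 to 1769.6 in CHR (median 1379.8), from 2004 to 3740.2 in PAP (median 2262) and from 1126 to 3326 in SCC (median 2108). Every papilloma lay above every CHR sample, as they did for 14.4% of all genes. The mean of 1371 ± 278 in CHR rose to 2549 ± 682 in PAP, a log2 difference of 0.84 ± 0.23 (limma adjusted p = 0.00695) and a higher level in 6 of 6 mice. With the keratinocyte markers as reference the call was lost (0.26, limma adjusted p = 0.453).

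In SCC the Phlda3 mean was 2205 ± 786, with a log2 difference of 0.60 ± 0.23 that just missed the threshold (limma adjusted p = 0.0503), positive in 5 of 6 mice. The carcinoma of mouse 7 stood apart with 1126 reads, 0.62 lower on the log2 scale than the CHR sample of that mouse. Without mouse 7 the difference was 0.84, and it passed the test there and in 6 further fits of 16, with adjusted p over the 16 between 0.0052 and 0.182.

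Zmat3 (ENSMUSG00000027663.12, chromosome 3, 32334792 to 32366014), a zinc-finger protein that binds RNA, had lower means in the lesions without passing the test. The reads ran from 737 to 1168 in CHR (median 895), from 388 to 1108 in PAP (median 697) and from 516 to 1143 in SCC (median 774). The log2 difference from CHR was -0.31 in PAP (95% interval -0.72 to 0.10), negative in 5 of 6 mice. In SCC it was -0.25 (-0.67 to 0.16), negative in 3 of 6 mice.

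Sesn2 (ENSMUSG00000028893.8, chromosome 4, 132492032 to 132510501) encodes sestrin 2, which senses leucine and restrains mTORC1 under stress. Reads for Sesn2 ranged from 578 to 930.3 in CHR (median 716), from 479.5 to 1218 in PAP (median 945) and from 550.2 to 1219 in SCC (median 599). The highest papilloma was that of mouse 7 and the highest carcinoma that of mouse 10, and the groups overlapped. The log2 differences from CHR were 0.26 (95% interval -0.18 to 0.70) in PAP, positive in 3 of 6 mice, and -0.04 (-0.48 to 0.40) in SCC.

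**Figure D2:**
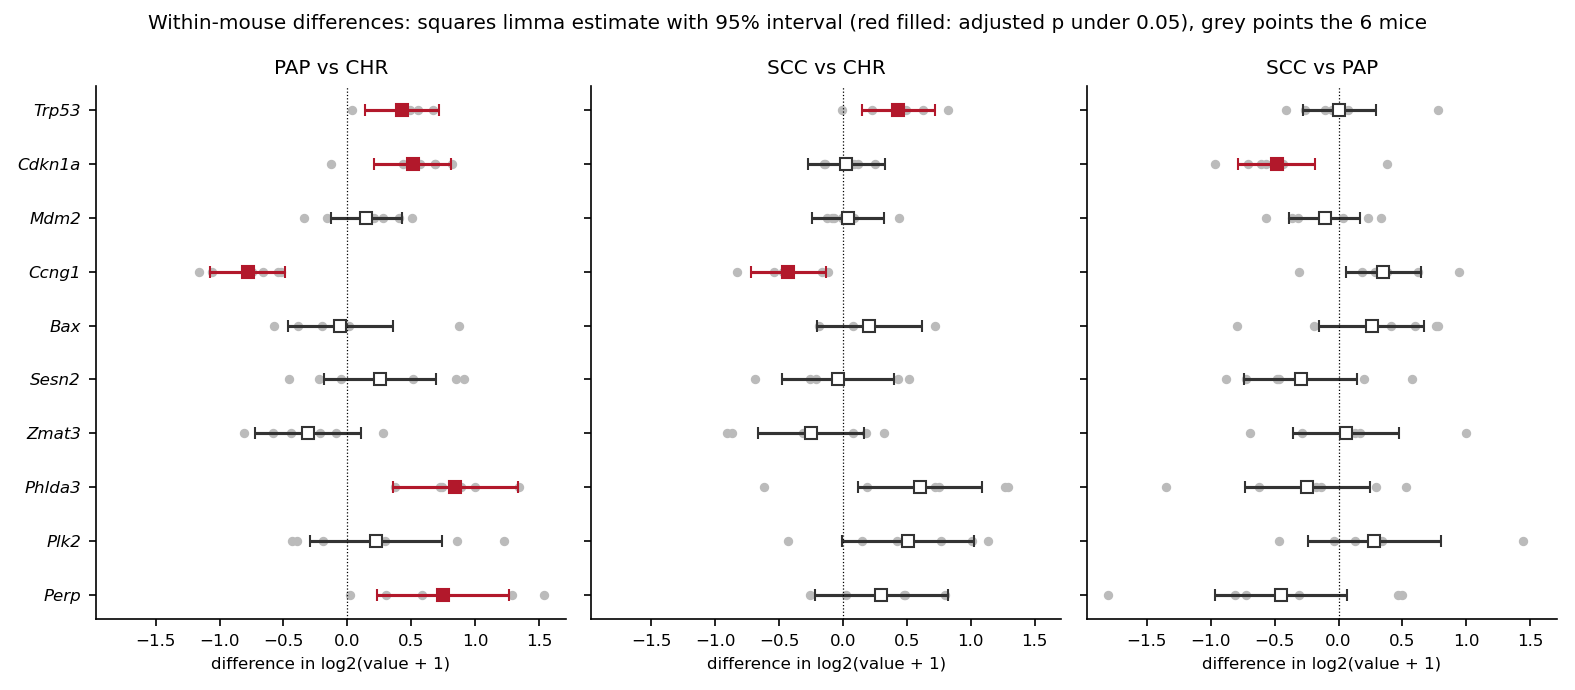
Differences in log2(value + 1) (horizontal axes) for each gene in PAP vs CHR, SCC vs CHR and SCC vs PAP. Grey points are the 6 mice, squares the limma estimate with its 95% interval, filled red where the adjusted p was under 0.05. In PAP vs CHR, Trp53, Cdkn1a, Phlda3 and Perp lie above 0 and Ccng1 below it. With the keratinocyte markers as reference (not drawn), Trp53 and Cdkn1a lie at -0.16 and -0.07 and the median of all genes at -0.58. That reference moves every gene by the same amount.

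Counted together, 5 of the 10 genes passed the test in PAP vs CHR (Trp53, Cdkn1a, Phlda3 and Perp higher, Ccng1 lower), and 52.6% of all 14521 genes did. The members were thus called about as often as any gene. Higher were 4 of 10 members, against 23.3% of all genes, and lower 1 of 10, against 29.3%. The split of all genes turned with the scaling, from 3388 higher and 4251 lower here to 5339 and 3211 under quantile scaling, 4893 and 3587 with libraries centred on their medians, and 293 and 6205 with the keratinocyte markers as reference. Of the members 4 were higher and 1 was lower under quantile and median scaling, and 0 were higher and 2 lower with the keratinocyte reference. The median log2 difference was 0.24 over the members and 0.00 over all genes. The direction was the same in all 6 mice for Trp53, Ccng1, Phlda3 and Perp, and for 48.8% of all genes. In SCC vs CHR, 2 of 10 passed the test (Trp53 higher, Ccng1 lower), against 38.4% of all genes (15.8% higher, 22.7% lower), with a median of 0.12 against -0.02. Ccng1 alone had the same direction in all 6 mice there, against 38.5% of all genes. In SCC vs PAP, Cdkn1a alone passed, against 9.85% of all genes (1.1% lower), with a median of -0.05 against -0.02. No member had the same direction in all 6 mice in that comparison (11.3% of all genes), and all 10 overlapped between the groups, with 0.413% of all genes not overlapping. PAP vs CHR and SCC vs CHR share the same 6 CHR samples.

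When each library was centred on the keratinocyte markers, the median difference of all genes in PAP vs CHR moved from 0.00 to -0.58, and 2 of 10 members passed the test, Ccng1 and Zmat3 (-0.89). Trp53 then stood at -0.16, Cdkn1a at -0.07 and Phlda3 at 0.26, all above that median, and Ccng1 at -1.36, below it. This centring moves the difference of every gene by the same amount. The positions relative to the median are therefore those of the reported fit and add nothing to it.

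The study sorts genes by when they change, with a mixed model in which the mouse is a random effect and unadjusted p under 0.05. A gene is early when SCC vs CHR and PAP vs CHR both pass in the same direction, late when SCC vs CHR and SCC vs PAP do, and stepwise when all 3 do. By this rule Trp53 and Phlda3 were early with higher levels and Ccng1 was early with lower levels. In Ccng1 the step from PAP to SCC also had a p under 0.05, in the opposite direction. No member was late or stepwise. Early genes made up 41.1% of all genes, late genes 2.2% and stepwise genes 0.523%. Phlda3 lost the class when mouse 2, 8, 9 or 10 was left out, and with adjusted p. Cdkn1a, Perp and the other 5 genes had no class because SCC vs CHR did not pass, as in 51.6% of all genes. A further 4.58% of genes passed SCC vs CHR without a class, and no member was among them.

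The members did not move as a block from library to library, CHR included. After removal of mouse and group means, r over the 18 libraries was 0.72 for Plk2 and Ccng1, 0.69 for Plk2 and Bax and 0.67 for Perp and Sesn2. It was -0.75 for Perp and Bax and -0.69 for Sesn2 and Bax. Trp53 had an r of -0.02 with Cdkn1a and -0.07 with Mdm2, and its highest was 0.58 with Zmat3. Cdkn1a and Mdm2 had an r of 0.55. The pairs without Trp53 or Cdkn1a are named because they are the highest and lowest of all pairs of members. The 18 points come from the same libraries and share their depth and tissue makeup. With mouse and group means removed, fewer than 18 of them are independent, so these values are descriptions.

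Against the marker lists, Bax and Sesn2 stood on opposite sides, with r of -0.83 and 0.70 for the keratinocyte list after removal of mouse and group means. Plk2 and Bax had r of 0.72 and 0.68 with the skeletal muscle list. Among papillomas that of mouse 2 was highest for this list, and among carcinomas that of mouse 10 was lowest. In that papilloma Cdkn1a, Ccng1, Bax and Plk2 were at their highest among the 6, and Sesn2 was at its lowest. In that carcinoma Ccng1, Bax, Zmat3 and Plk2 were at their lowest among the 6, whereas Cdkn1a and Sesn2 were at their highest. Trp53 had its highest r with the proliferation list, 0.83 after removal of mouse means and 0.54 after removal of group means too. Its r with the fibroblast list was -0.69 and -0.59, the second larger in size than that with proliferation. The values without removal of group means include the differences between groups. Whether tissue makeup or proliferation accounts for any of these differences was not tested.

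**Figure D3:**
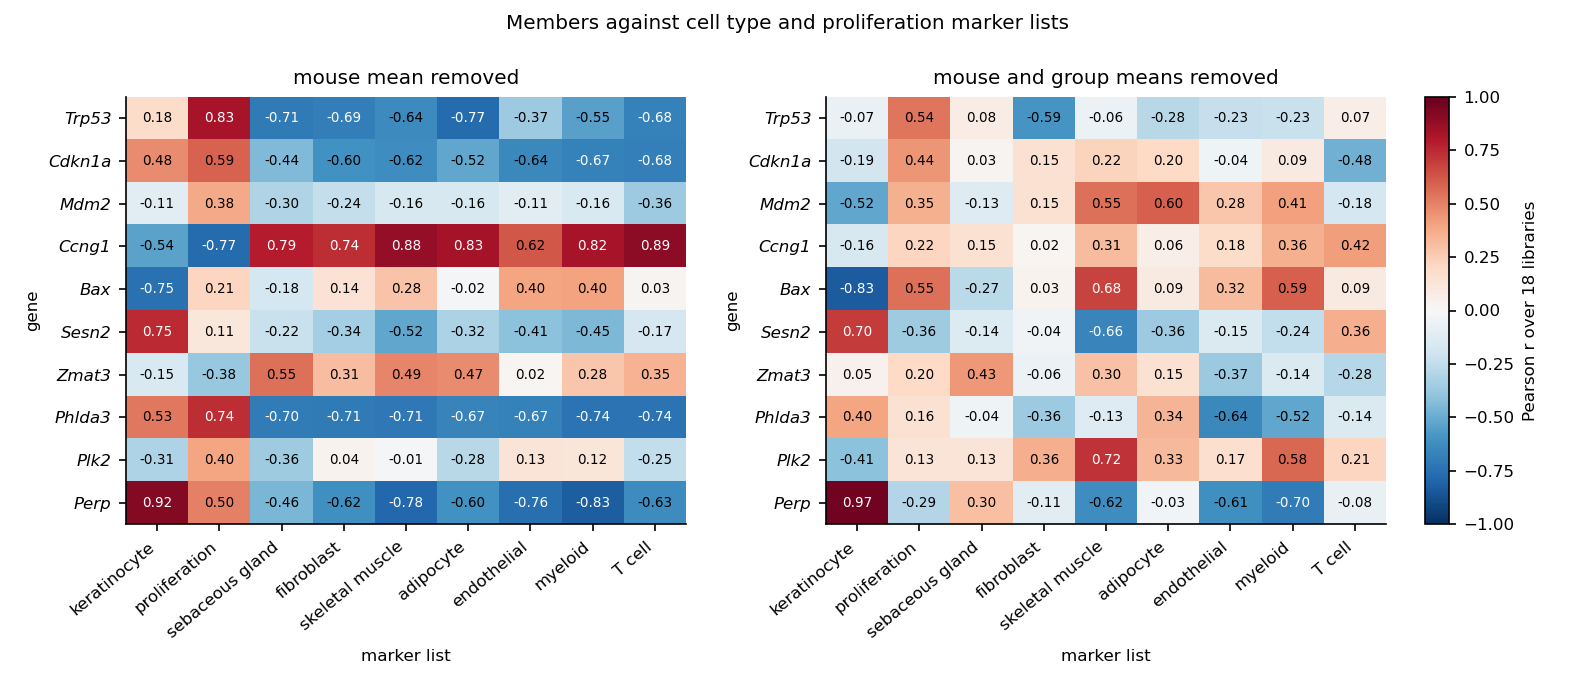
Pearson's r (colour, from -1 to 1, and printed in each cell) between each member (rows) and the mean level of each marker list (columns) over 18 libraries, with the mean of each mouse removed (left) or the means of mouse and group removed (right). Perp and the keratinocyte list stand out with 0.92 and 0.97, and Ccng1 with the muscle list falls from 0.88 to 0.31.

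The genes whose level was most like that of Trp53, ranked by r over the 18 libraries after removal of mouse means, were Cenpt (0.948), Polr2b (0.946), Abcf2 (0.942), Snrpa1 (0.938) and Wdr75 (0.937). Their log2 differences in PAP vs CHR ran from 0.47 for Abcf2 to 0.89 for Snrpa1. For Cdkn1a they were Clk3 (0.892), Fem1b (0.884), Rnaseh2c (0.879), Nploc4 (0.879) and 2010107G23Rik (0.879), with lower levels in SCC than in PAP by 0.20 to 0.53 on the log2 scale. Group means were not removed, so shared differences between groups enter these r values. No other member was among these genes, which says little for lists this short.

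Beyond the 10 genes, 72 further genes of the p53 pathway were listed by role, and 70 had a row. In PAP vs CHR, 28 of the 70 rose, 16 fell and 26 did not pass the test, so that 62.9% were called against 52.6% of all genes. In SCC vs CHR 22 rose and 11 fell, 47.1% against 38.4% of all genes, and in SCC vs PAP 3 rose and 2 fell, 7.14% against 9.85%. Of all genes, 23.3% were higher and 29.3% lower in PAP vs CHR, and 15.8% and 22.7% in SCC vs CHR. In SCC vs PAP 1270 of all 14521 genes were higher and 160 lower. The median log2 difference of the 70 was 0.15, 0.06 and -0.10 in the 3 comparisons, each within 0.2 of that of all genes. With the keratinocyte markers as reference the direction turned, with 7 higher and 19 lower in PAP vs CHR and 17 higher and 0 lower in SCC vs PAP. Libraries centred on their medians gave 32 higher and 11 lower in PAP vs CHR, and 2 and 3 in SCC vs PAP. By role, 0 regulators of p53, 0 apoptosis targets and 0 DNA repair targets were higher in PAP vs CHR with the keratinocyte reference. Lower were 4, 7 and 2, respectively, whereas 3 cell cycle targets were still higher and 1 was lower. Of all 14521 genes, 293 were higher and 6205 lower with that reference.

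**Figure D4:**
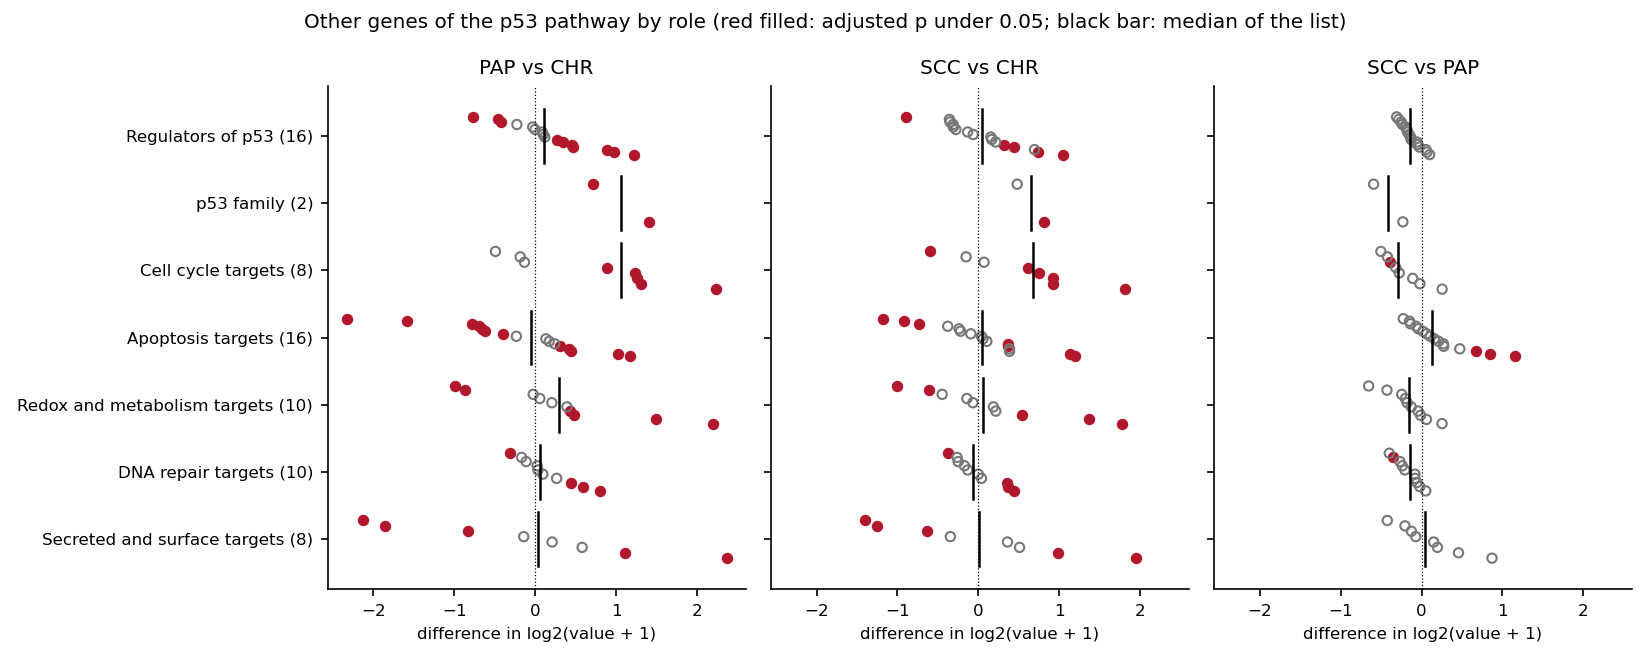
Difference in log2(value + 1) (horizontal axes) of each of 70 other p53 pathway genes, grouped by role (rows, number of genes measured in parentheses) in the 3 comparisons. Filled red points had an adjusted p under 0.05 and black bars are list medians. Cell cycle targets lie mostly above 0 in both lesions (median 1.06 in PAP vs CHR, and 0.48 with the keratinocyte markers as reference, which is not drawn), whereas apoptosis targets spread on both sides of 0.

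Of the 16 regulators of p53, 7 rose and 3 fell in PAP vs CHR, so that 62.5% were called. Of all genes 52.6% were called there, 23.3% higher and 29.3% lower. The checkpoint kinases Chek1 and Chek2, which signal DNA damage and phosphorylate p53, rose by 1.22 and 0.98 on the log2 scale, from means of 151 and 255 reads to 455 and 577. Cdkn2a, which gives rise to p16 and to the Mdm2 inhibitor p19Arf, rose by 0.89 in 5 of 6 mice. Hipk2, a kinase that directs p53 towards apoptosis, fell by 0.77. Both relatives of p53 rose, namely Trp63, the master regulator of stratified epithelia, from 5604 to 14884 reads (log2 difference 1.41, limma adjusted p = 5.1e-05), and Trp73 from 443 to 796 (0.71). In SCC, Trp63 was also higher than in CHR (0.81), while Trp73 did not pass the test (0.48).

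Of the 8 cell cycle targets, 5 rose and 0 fell in PAP vs CHR (62.5% called, against 52.6% of all genes). Of all genes 23.3% rose and 29.3% fell. E2f7, a repressor of E2F-driven transcription, rose most, from 121 to 850.4 reads (log2 difference 2.24). Cdc25c, a phosphatase that drives entry into mitosis, rose by 1.32, Sfn, the 14-3-3 protein of epithelia, by 1.26 and Gtse1, a microtubule-bound protein that restrains p53 in G2, by 1.24. Some of these do not stop the cycle but accompany division, and p53 is known to repress Cdc25c. Sfn is also a member of the keratinocyte marker list, and all 10 proliferation genes rose in the same comparison. In SCC vs CHR 5 rose and 1 fell (75% called, against 38.4% of all genes). The 1 that fell was the antiproliferative gene Btg2 (-0.60), which is named after its values were seen. Cdc25c fell by 0.39 from PAP to SCC (limma adjusted p = 0.0338), which 8 of 16 other fits kept. The call was lost without the block, with PAP and SCC alone and without mouse 3, 7, 8, 9 or 10, and with the keratinocyte markers as reference the difference was 0.27.

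The 16 apoptosis targets were divided, with 5 up and 7 down in PAP vs CHR (75% called, against 52.6% of all genes). Trp53i11 and Pmaip1, the latter encoding the BH3-only protein Noxa, rose by 1.17 and 1.02. Steap3, a metalloreductase of iron uptake, fell by 2.33 from 1939 to 321 reads, and Eda2r, a receptor of the TNF family, fell by 1.58. Both were higher again in SCC than in PAP, by 1.15 and 0.85, as was the autophagy gene Dram1 by 0.68. Of 16 other fits 11 kept the call for Steap3, 11 for Eda2r and 9 for Dram1, and all were lost with PAP and SCC alone and without mouse 3, 7 or 8. The skeletal muscle list moved the same way, with 10 of 10 genes lower in PAP vs CHR and 9 of 10 higher in SCC vs PAP, and its part in these differences was not tested.

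Among 10 redox and metabolism targets, 4 rose and 2 fell in PAP vs CHR (60% called, against 52.6% of all genes). Ddit4, an inhibitor of mTORC1 that also responds to hypoxia, rose from 589 to 3073 reads (log2 difference 2.20), and Gls2, the liver-type glutaminase, from 53.1 to 262 (1.49). Sesn1, the paralogue of Sesn2, fell by 0.996 and the lysosomal fucosidase Fuca1 by 0.86, both lower in 6 of 6 mice. Sesn1 and Sesn2 thus had log2 differences of -0.996 and 0.26, of which the first passed the test.

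Of the 10 DNA repair targets, 3 rose and 1 fell in PAP vs CHR (40% called, against 52.6% of all genes). Polh, the polymerase that copies past ultraviolet-induced thymine dimers, rose by 0.80, and Ddb2, which recognises ultraviolet damage for excision repair, by 0.59, both in 6 of 6 mice. Pcna rose by 0.45 from a mean of only 70.1 reads, and pseudogene copies make its counting uncertain. Rrm2b, a subunit of ribonucleotide reductase, fell by 0.31. Polh was lower in SCC than in PAP by 0.35 on the log2 scale (limma adjusted p = 0.0497), a call that only 5 of 16 other fits kept. It was lost without the block, with PAP and SCC alone, under quantile scaling, on log2 of the recovered reads, with low genes left out and without mouse 2, 3, 7, 8 or 9, and with the keratinocyte markers as reference the difference was 0.31.

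Of the 8 secreted and surface targets, 2 rose and 3 fell in PAP vs CHR (62.5% called, against 52.6% of all genes). Among them, the receptor tyrosine kinase Epha2 rose by 1.11 on the log2 scale. Abca1, a cholesterol exporter, fell by 2.12 and the sulfatase Sulf2 by 1.86.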

How the data were processed

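mRNA was sequenced from CHR, PAP and SCC samples of 6 mice (18 libraries, 14542 rows). The authors aligned reads to mm10, counted them per gene (HTSeq), normalised the counts with a scaling factor for each library and then transformed them to stabilise the variance. The deposited values are rounded and form an expression score in which 0 reads appear as 39. A scaling of batch medians is mentioned in the methods. The aligner of the mouse reads, tool versions, annotation release and strandedness are not given in the sources used here. All 18 columns were mapped by title, and 0 were left over. Rows without a symbol (21, at most 0.236% of a library's total) were left out.

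The transformation was inverted with a fitted zero level of 39.12. Of all values 99.1% were exactly those of whole reads, and 99.9% of those under 100. The zero level and size factors were chosen for the most such matches, so these shares are not an independent check. For size factors above 1, whole reads at high values lie less than 1 unit apart, so nearly any value matches. Size factors were 0.834 to 1.18, and depth was 15.4 to 21.0 M reads. In the 153 pairs of libraries at most 2.24% of values were equal, so none was a duplicate.

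limma (3.58.1, R 4.3.3) was run on log2(value + 1) with the mouse as block, since same-numbered samples come from the same animal, on all 18 libraries. P values were two-sided and adjusted by Benjamini-Hochberg over 14521 genes (threshold 0.05). Fold changes on this scale understate changes of low genes. Each mouse gave 1 sample per group. Scripts were tested on simulated data, and the mixed-model classes were checked against nlme (3.1.168). Marker levels are means of log2(value + 1) over a list. Half-sites were searched with Python 3.11.15. Coordinates are those of GENCODE M21 (GRCm38).

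The members and lists were chosen with earlier results of these data known. All members are named. Of each pathway list up to 4 called genes with the largest differences in PAP vs CHR, then in SCC vs PAP, are named; 1 such gene is not reported here. For Trp53 and Cdkn1a, the 5 genes with the highest r are named. Ptprv and Rprm had no row, and Pidd1 and Tigar were found under older symbols. The alternatives were another block, sample set, scaling, pseudocount, filter, prior or count model (voom), and leaving out each mouse.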

Additional observations from a re-analysis of the deposited data

Results flagged for a closer look

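Cdkn1a in the papilloma of mouse 3, with 1045 normalised reads, lay far below the other 5 papillomas (1775 to 2371). On the log2(value + 1) scale the gap to the nearest of them was 0.642 of the range of the group, above Dixon's critical value for 6 samples. In the normalised reads the gap is a smaller share of the range and lies below that value, so the flag holds for the log2 scale only. The Cdkn1a papillomas were 1 of 30 groups of members tested on the log2 scale, and chance alone flags about 1 in 20. In the same papilloma Mdm2 was also at its lowest among the 6 (1486 reads), whereas Trp53 was at its highest (614 reads). Without mouse 3, the log2 difference of Cdkn1a was 0.64 for PAP vs CHR and -0.66 for SCC vs PAP. The limma adjusted p over the 16 other fits ran from 0.000514 to 0.845 for the first and from 0.0306 to 0.556 for the second.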

How the results depend on the processing

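For each difference and count of calls 16 other fits were run, and for the progression classes 7. With the keratinocyte markers as reference, 2, 0 and 3 members passed the test in PAP vs CHR, SCC vs CHR and SCC vs PAP, against 5, 2 and 1 in the reported fit, and 26, 16 and 17 pathway genes against 44, 33 and 5. Of all genes, 1928 passed in SCC vs CHR and 5657 in SCC vs PAP (5656 higher). This reference moved the median of all genes by -0.58 in PAP vs CHR and by 0.67 in SCC vs PAP. In PAP vs CHR it gave -0.16 for Trp53, -0.074 for Cdkn1a, -0.44 for Mdm2, -0.33 for Sesn2 and -0.36 for Plk2, and in SCC vs PAP 0.18 for Cdkn1a, 0.56 for Mdm2, 0.37 for Sesn2, 0.42 for Phlda3 and 0.22 for Perp, each on the other side of 0 from the reported value. In SCC vs CHR it gave 0.041 for Sesn2.

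Without the mouse as replicate block, 0 members, 1 pathway gene and 810 genes passed in SCC vs PAP, and with PAP and SCC alone in the fit 0, 0 and 0 in limma (1, 9 and 2830 at an unadjusted p under 0.05, lowest adjusted p 0.0512). Phlda3 passed in SCC vs CHR without the block (0.60, limma adjusted p = 0.0398, range over the 16 fits 0.0052 to 0.182), and the block changed no other call of a member except that of Cdkn1a in SCC vs PAP. On log2 of the recovered reads 0 members passed in SCC vs PAP, and under quantile scaling Perp passed there (-0.65) in place of Cdkn1a. Values near 0 changed sign under quantile scaling for Bax in PAP vs CHR (0.081), Sesn2 in SCC vs CHR (0.015) and Trp53 in SCC vs PAP (-0.048), under centring on the library median for the same (0.084, 0.037 and -0.056) and Zmat3 in SCC vs PAP (-0.0039), and in voom for Trp53 in SCC vs PAP (-0.0025). Quantile scaling gave 3667 genes higher and 2680 lower in SCC vs CHR and 709 and 326 in SCC vs PAP, against 2291 and 3292, and 1270 and 160, in the reported fit, and centring on the library median 3105 and 2810 in SCC vs CHR. These scalings moved the median of all genes by up to 0.16.

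When each mouse was left out in turn, 3 to 5 members passed in PAP vs CHR, 0 to 2 in SCC vs CHR and 0 to 1 in SCC vs PAP. In SCC vs PAP 0 to 7 pathway genes and 0 to 1995 of all genes passed, with 0 genes without mouse 7 or 8 (2450 and 2594 at an unadjusted p under 0.05) and 471 without mouse 3. Ranges that crossed 0 were -0.24 to 0.049 for Bax in PAP vs CHR, -0.018 to 0.062 for Cdkn1a, -0.039 to 0.073 for Mdm2 and -0.15 to 0.089 for Sesn2 in SCC vs CHR, and -0.15 to 0.089 for Trp53 and -0.13 to 0.21 for Zmat3 in SCC vs PAP. The causes were not tested. Over all members, comparisons and other fits, 415 values kept their direction and their side of the threshold, 26 lost a call (3 of them with a change of sign), 14 gained one and 28 changed sign. Depth left no member low, since the lowest level was 321 normalised reads of Trp53, and the number of mice limits what can be detected.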
